A study of Mus musculus with 9 samples.

Results

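The comparison described here set 3 mouse glioma lines driven by a mutant Hras transgene against 3 cultures of normal neural stem cells (NSC). These 6 arrays are part of a series of 9, whose other 3 arrays hold glioma lines driven by a mutant Erbb2 transgene. The members were the 3 arrays labelled as Hras lines and the 3 arrays labelled as NSC in a table of log2 expression levels. Of its 20715 gene rows, 25 carry a number in place of a symbol and were dropped, which left 20690 genes.

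Hras 1, 2 and 3 were grown from CD1 mice whose brains were electroporated with EGFP-Hras G12V, a constitutively active form of the small GTPase. The same cells received the blue marker TagBFPnls-V5 and pBase, which codes for the transposase that inserts the transgenes. Erbb2 1, 2 and 3 came from CD1 mice given EGFP-P2A-Erbb2 V664E, an activated receptor tyrosine kinase, with the same marker and transposase. NSC 1 and 2, also from CD1 mice, carried a membrane EGFP and an EGFP-tagged histone in place of an oncogene, again with TagBFPnls-V5 and pBase. NSC 3 carried TagBFPnls-V5 and pBase without EGFP, and came from C57/Bl6 mice with a floxed Dnm2 gene. Its description names a sort for the blue protein without Cre, whereas its source name says that EGFP was used, as for the others. All cultures were taken from the subventricular zone on the electroporated side and passaged as adherent cells in B-27 medium that contained EGF, FGF and heparin. They were then sorted for high fluorescence. All 9 therefore share the transposase, the blue marker and the growth factors, and the NSC cultures are stem cells under stimulation by 2 growth factors that themselves act through Ras. Whether the lines within a group derive from different animals is not stated in the labels, and a p-value here reflects the spread between these cultures, which may be technical in part. The description of Hras 3 ends in the number 4, and the title was followed.

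Ras proteins are molecular switches that pass signals from receptor tyrosine kinases to the ERK and PI3K kinase cascades. An activated Hras keeps that signal on without a ligand, and it is known in other cells to promote division, matrix remodelling and secretion of inflammatory factors. Neural stem cells of the subventricular zone are astrocyte-like cells that carry transporters for GABA and glutamate, and they give rise to neuroblasts and to oligodendrocyte precursors.

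Levels and differences are on the log2 scale of the deposited table, so that a difference of 1 is a 2-fold difference. The scale of the 6 arrays differed slightly. The median level over genes was 7.06, 7.19 and 6.98 in Hras 1, 2 and 3, against 6.81, 6.56 and 6.69 in NSC 1, 2 and 3, and the median difference over all genes was 0.16. Of the 20690 genes, 14166 had a positive and 6521 a negative difference, a split to be set beside the counts by sign below. A gene's mean level was taken as dim where it lay at or under 5.24, the level that 90% of 1319 olfactory and vomeronasal receptor genes do not exceed. Hras1, the mouse Hras gene, had levels of 9.52, 9.29 and 9.52 in the Hras lines, against 9.81, 8.96 and 9.05 in NSC, which overlap (difference 0.17 ± 0.26 SE, limma adjusted p 0.87). The labels do not say whether the probes match the transgene, so this level checks no label. Erbb2 differed by 0.53 (limma adjusted p 0.76) and Dnm2, floxed in NSC 3, by 0.49 (0.71). The Ets factors Etv1, Etv4 and Etv5, which the series' title points to and which ERK signalling induces, differed by 0.52, 0.71 and 0.11 (limma adjusted p 0.69, 0.55 and 0.96).

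The groups also differed in sex-linked genes. Eif2s3y, on the Y chromosome, had levels of 3.89, 4.01 and 3.72 in the Hras lines, all dim, against 9.02, 5.68 and 9.23 in NSC. Xist, which is made from the inactive X chromosome, had levels of 8.83, 10.23 and 9.69 in the Hras lines, against 7.08, 10.39 and 7.09 in NSC. The Hras lines and NSC 2 thus had more Xist than NSC 1 and 3. Eif2s3y was highest in NSC 1 and 3, lay in between in NSC 2, where it was above the dim limit, and was lowest in the Hras lines. The part of sex in the differences below was not tested. Markers of other cell types were near the dim limit for some genes and above it for others. Csf1r, Ptprc and Cdh5, of macrophages, blood cells and endothelium, lay between 4.93 and 6.03 in Hras lines and between 4.80 and 5.75 in NSC. The lysosomal protein gene Cd68 had levels of 7.30, 8.32 and 8.24 in the Hras lines, against 6.37, 7.01 and 8.47 in NSC, and Flt1, a receptor for VEGF, had 7.53, 8.88 and 9.90 in the Hras lines, against 7.17, 6.09 and 8.56 in NSC. Both overlapped. Ly6c1 and Laptm5, of endothelial and blood cells, stood out in Hras 3 at 9.56 and 7.50, while the other Hras lines and NSC were at 6.33 or under and at 6.00 or under. The mean of 16 microglial and macrophage genes ran between 5.61 and 6.05 in Hras lines and between 5.39 and 5.82 in NSC. For 16 endothelial genes it ran between 5.65 and 6.22 in Hras lines and between 5.42 and 5.91 in NSC, and for 21 pericyte and fibroblast genes between 6.52 and 6.96 in Hras lines and between 6.37 and 6.70 in NSC. No member of the first 2 lists was apart by 2-fold, while in the third 2 were higher (Prrx1 and Cspg4) and 1 was lower (Tagln). Their part in the results was not tested. In these bulk cultures, fewer cells of a type and less RNA per cell cannot be told apart.

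No gene passed the test of Hras lines against NSC. In limma with Benjamini-Hochberg adjustment, 0 of 20690 genes (0%) had an adjusted p under 0.05, and the smallest was 0.071. At an unadjusted p under 0.05 there were 2166 genes higher in the Hras lines (10.5%) and 315 lower (1.52%). The description used below counts a gene as apart when all 3 Hras lines lie beyond all 3 NSC cultures and the mean difference is at least 2-fold. By that measure 879 genes (4.25%) were higher in the Hras lines and 144 (0.696%) were lower. With 1 Hras or NSC array left out, fewer values can overlap, and the counts were 906 to 1642 higher and 156 to 302 lower. The split depended on the scale of the arrays. It was 459 higher and 315 lower after quantile normalization, and 335 higher and 390 lower after centring each array on its median, which moved the median difference over all genes to -0.03 and -0.23. The number of genes with an adjusted p under 0.05 also depended on the arrays in the fit. It was 76 without NSC 1, 18 without Erbb2 1, 11 without Erbb2 3, and 20 with the Hras and NSC arrays alone. Among those 20 were Pdgfra, Syt4, Itga8, Nefl, Nefm and Fads3, higher in the Hras lines, and Slc6a11, Grm3, Car2 and Dbx2, lower. NSC 1 had the lowest weight of the 9 arrays, 0.288, where limma estimated weights.

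The 15 largest differences on each side among genes apart belonged to genes of varied roles, and carbonic anhydrases and carriers of the Slc6 family were found on both sides. Pdgfra, the receptor for platelet-derived growth factor that marks oligodendrocyte precursors, had levels of 11.89, 10.10 and 9.60 in the Hras lines, against 5.79, 5.64 and 5.16 in NSC (difference 5.00 ± 0.68 SE, limma adjusted p 0.071). It was close to the dim limit in all 3 NSC cultures and the groups did not overlap. Syt4, a synaptotagmin of dense-core vesicles, had levels of 11.14, 11.15 and 9.68 in the Hras lines, against 5.82, 5.67 and 6.32 in NSC (4.72 ± 0.86). Mlkl, the executioner of necroptosis, had levels of 8.93, 9.27 and 10.70 in the Hras lines, against 6.68, 4.44 and 4.99 in NSC (4.26 ± 0.78). Itga8, an integrin chain, had levels of 10.31, 11.02 and 9.20 in the Hras lines, against 6.22, 5.18 and 6.37 in NSC (4.25 ± 0.50, limma adjusted p 0.071). All 4 of these genes were within reach of the dim limit in at least 1 NSC culture and far above it in each Hras line. Lgals9, a galectin that acts on immune cells, had levels of 8.37, 10.24 and 10.92 in the Hras lines, against 5.89, 6.00 and 6.01 in NSC (3.88 ± 0.76). Slc6a6, the taurine carrier, had levels of 7.95, 9.76 and 9.99 in the Hras lines, against 6.20, 5.87 and 5.84 in NSC (3.26 ± 0.50).

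Some of the large differences rested on uneven lines. Capn6, a calpain without protease activity that binds microtubules, had levels of 11.79, 8.88 and 6.03 in the Hras lines, against 5.42, 5.27 and 4.78 in NSC (3.75 ± 1.40). Tes, a focal adhesion protein, had levels of 7.24, 7.93 and 11.77 in the Hras lines, against 6.11, 5.21 and 5.28 in NSC (3.45 ± 0.99). Capn6 was highest in Hras 1, and its lowest Hras line was close to the highest NSC culture. Tes was highest in Hras 3. Car6, a secreted carbonic anhydrase, was uneven in the same order as Capn6, with levels of 11.08, 8.44 and 6.56 in the Hras lines, against 5.40, 5.36 and 4.95 in NSC. Lmcd1, a LIM-domain co-regulator, had levels of 10.94, 8.50 and 10.89 in the Hras lines, against 6.64, 6.15 and 5.87 in NSC (3.89 ± 0.95).

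On the lower side, Slc6a11, a carrier that takes up GABA, had levels of 6.06, 7.30 and 6.25 in the Hras lines, against 10.79, 11.94 and 10.68 in NSC (-4.60 ± 0.77, limma adjusted p 0.083). Rfx4, a transcription factor of neural progenitors and cilia, had levels of 5.09, 6.89 and 5.27 in the Hras lines, against 9.33, 10.50 and 10.92 in NSC (-4.50 ± 0.58, limma adjusted p 0.071). Car2, an intracellular carbonic anhydrase, had levels of 7.50, 7.84 and 7.03 in the Hras lines, against 10.93, 11.42 and 11.09 in NSC (-3.69 ± 0.50, limma adjusted p 0.071). Slc6a11 and Rfx4 were highest in Hras 2 among the Hras lines, and no value of the 3 genes overlapped. Car3, a carbonic anhydrase of low activity, had levels of 5.14, 6.02 and 5.23 in the Hras lines, against 9.88, 10.79 and 7.46 in NSC (-3.91 ± 1.14). Nrn1, a membrane-anchored factor that promotes neurite growth, had levels of 5.22, 5.89 and 5.44 in the Hras lines, against 8.91, 8.21 and 10.32 in NSC (-3.63 ± 0.50). Plcd4, a phospholipase C, had levels of 6.34, 5.98 and 5.40 in the Hras lines, against 9.48, 10.16 and 8.30 in NSC (-3.41 ± 0.54). Car3 and Nrn1 were near the dim limit in 2 Hras lines each. Tmem47, a junction-associated membrane protein, was less uniform, with levels of 6.08, 10.45 and 8.89 in the Hras lines, against 11.57, 12.97 and 12.16 in NSC. Adcyap1r1, the receptor for the neuropeptide PACAP, differed by -3.46 and Slc39a12, a zinc carrier, by -3.44, the second being dim in all 3 Hras lines.

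**Figure D1:**
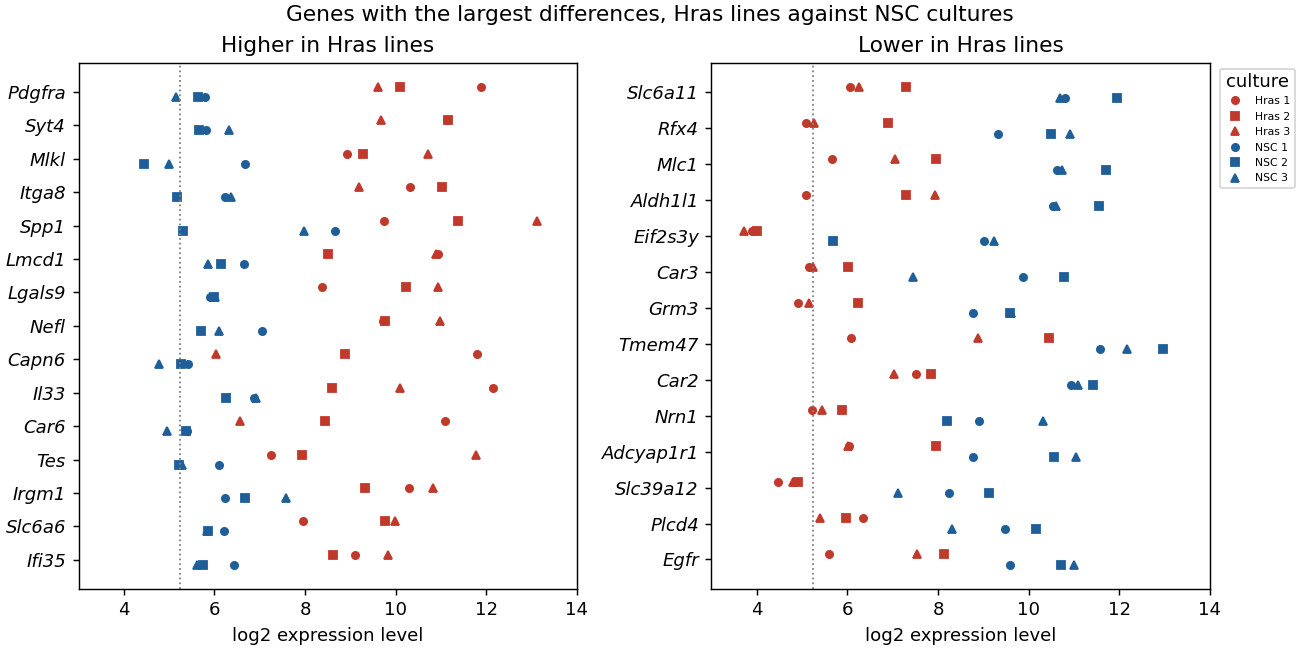
Log2 expression level (horizontal axis) of the 15 genes with the largest positive difference and of all but 1 of the 15 with the largest negative difference, with 1 point per culture, Hras lines in red and NSC cultures in blue, and the dim limit of 5.24 as a dotted line. The 2 groups do not overlap in any of these genes, which were chosen for that, while Capn6, Car6 and Tes spread widely among the Hras lines.

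Ras signalling genes themselves differed little, and the feedback genes of the ERK cascade differed more. Of 27 genes of the core from receptor adaptors to ERK, 25 had a positive difference (median 0.46), but only 1 was apart by 2-fold, none after either rescaling and 2 to 4 without any 1 array. That gene was Shc1, an adaptor that links receptors to Ras, with levels of 9.07, 9.60 and 10.30 in the Hras lines, against 8.72, 8.29 and 7.98 in NSC. Rras2, a relative of Ras, differed by 0.97, Sos1, an exchange factor that loads Ras with GTP, by 0.92, and the kinase Map2k2 by 0.70. Of 22 output and feedback genes of ERK (median 0.59), 5 were apart and higher and 0 lower, and 4 were higher after either rescaling and 8 without Hras 1. Dusp4, a phosphatase that inactivates ERK in the nucleus, had levels of 9.52, 11.13 and 10.75 in the Hras lines, against 7.84, 7.90 and 8.92 in NSC (2.24 ± 0.60). Plaur, the receptor for urokinase, had levels of 6.93, 8.08 and 10.27 in the Hras lines, against 6.00, 5.25 and 6.34 in NSC (2.56 ± 0.80). The other members apart were Phlda1 (2.00), Ier3 (1.75) and the Ras pathway inhibitor Spry4 (1.21). Spred1, another inhibitor of the pathway, differed by 0.72. Hras 1 was the lowest line in Dusp4, Plaur and Ier3 but the highest in Phlda1.

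Among 24 genes of the PI3K and Ral branches (median 0.37), 3 were apart and higher and 0 lower, with 2 higher after either rescaling and 6 without NSC 3, and the median was 0.21 without NSC 1. Pik3cb, a catalytic subunit of PI3K, had levels of 10.02, 9.15 and 9.21 in the Hras lines, against 7.02, 6.90 and 8.01 in NSC (2.15 ± 0.59). Rassf1, a Ras-association protein that restrains growth, differed by 1.07, and Plce1, a phospholipase that Ras activates, by 1.73.

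Receptor tyrosine kinases differed in both directions. Of 36 such genes (median 0.24), 1 was apart and higher, Pdgfra, and 3 were apart and lower. The higher count was 8 without NSC 3, 6 without Hras 1, 4 without Hras 3 and 2 without any other array, and the lower count was 6 without NSC 1. The median ran between 0.07 and 0.38 without 1 array. Fgfr3, a receptor for fibroblast growth factors, had levels of 7.05, 7.29 and 6.59 in the Hras lines, against 8.56, 9.59 and 9.73 in NSC (-2.31 ± 0.36, limma adjusted p 0.077). Egfr, the receptor for the epidermal growth factor in the medium, differed by -3.35, and Ntrk2, the receptor for the neurotrophin BDNF, by -2.02. Ddr2, a collagen receptor, had levels of 9.41, 10.50 and 10.33 in the Hras lines, against 6.83, 7.67 and 9.43 in NSC, and the groups overlap at Hras 1 and NSC 3. Of 39 secreted growth factors (median 0.56) only Mdk, the heparin-binding factor midkine, was apart by 2-fold, with levels of 9.03, 9.56 and 9.32 in the Hras lines, against 7.81, 8.68 and 6.98 in NSC. The count was 11 without Hras 1, 4 without NSC 1, 3 without Hras 3 and 2 without NSC 2 or NSC 3, and the median was 0.35 without Hras 3. Ereg, the EGF receptor ligand epiregulin, differed by 2.04 through Hras 2 and 3, at 8.21 and 10.43, while Hras 1 at 5.43 lay among the NSC cultures at 6.52, 6.29 and 5.13.

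Genes of cell division formed the list with the most members apart. All 54 measured genes of mitosis and the kinetochore had a positive difference, with a median of 1.36 against 0.16 over all genes, and 26 were apart and at least 2-fold higher. The count was 20 after quantile normalization and 15 after centring, and it ran between 22 and 48 when 1 Hras or NSC array was left out, the 48 being without NSC 1. The mean of the list relative to the NSC mean was 1.47, 1.08 and 1.42 in Hras 1, 2 and 3, against 0.99, -0.50 and -0.49 in NSC 1, 2 and 3. NSC 1 thus lay nearly as high as Hras 2, and the other NSC cultures well below. The promoters of Plk1 and Kif14, named below, are shown because they hold a pair of short motifs of G2 and M phase genes. These are TTTGAA, the core of the cell cycle homology region, and CCAAT, the site of the factor NF-Y, both searched on either strand and printed in capitals. The stretches are from RefSeq, run 5′ to 3′ on the gene's strand, and cover 300 bases each, most of them before the start of transcription.
Plk1, GRCm38.p6 chr7:122159185-122159484 (+): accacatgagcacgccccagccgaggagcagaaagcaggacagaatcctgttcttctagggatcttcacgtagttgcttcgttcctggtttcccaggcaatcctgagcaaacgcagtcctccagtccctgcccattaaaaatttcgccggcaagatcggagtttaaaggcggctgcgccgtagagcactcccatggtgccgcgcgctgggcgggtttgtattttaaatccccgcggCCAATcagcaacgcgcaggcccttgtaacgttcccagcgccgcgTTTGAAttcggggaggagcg
Kif14, GRCm38.p6 chr1:136467598-136467897 (+): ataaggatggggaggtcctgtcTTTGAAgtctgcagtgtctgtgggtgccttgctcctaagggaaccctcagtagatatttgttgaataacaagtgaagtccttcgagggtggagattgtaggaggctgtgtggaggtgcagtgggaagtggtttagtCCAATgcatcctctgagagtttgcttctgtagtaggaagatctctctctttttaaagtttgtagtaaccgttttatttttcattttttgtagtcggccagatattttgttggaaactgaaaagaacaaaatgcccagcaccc
Of the 45 mitosis genes with a RefSeq promoter, 26 (57.8%) held both motifs, against 1033 of 14883 genes (6.94%). TTTGAA was held by 71.1% of the list and 17.3% of all promoters, and CCAAT by 68.9% and 42.2%. A match describes the letters only.

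Plk1, the kinase that drives entry into mitosis, had levels of 10.88, 10.94 and 11.08 in the Hras lines, against 9.49, 9.19 and 8.56 in NSC (1.89 ± 0.29, limma adjusted p 0.074). Kif14, a kinesin of the dividing cell's midbody, had levels of 7.92, 7.65 and 7.70 in the Hras lines, against 6.55, 5.20 and 5.76 in NSC (1.92 ± 0.33). Tpx2, which builds the spindle, had levels of 10.10, 9.98 and 9.98 in the Hras lines, against 8.87, 7.86 and 7.33 in NSC (2.00 ± 0.37). In each of these genes the 3 Hras lines lay close together while the NSC cultures were spread out, with NSC 1 the highest. Anln, the anillin of the cleavage furrow, had levels of 10.29, 10.62 and 11.60 in the Hras lines, against 9.35, 7.78 and 8.57 in NSC (2.27 ± 0.45). Further members apart were the kinesins Kif4 (2.10) and Kif20b (1.74), the checkpoint kinase Bub1b (1.75), the phosphatase Cdc25b (1.08), the topoisomerase Top2a (1.43) and the proliferation marker Mki67 (1.15).

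Genes of DNA replication followed with smaller differences. Of 44 genes, 43 had a positive difference (median 0.75) and 10 were apart and higher, but 0 were after either rescaling. The count was 1 without NSC 2, 19 without NSC 1 and 17 without NSC 3, and the median was 0.39 without NSC 2. Mcm3, a subunit of the replicative helicase, had levels of 9.76, 9.75 and 9.44 in the Hras lines, against 8.91, 7.57 and 8.65 in NSC (1.28 ± 0.34). Cdt1, which loads that helicase, had levels of 8.92, 9.32 and 9.31 in the Hras lines, against 7.55, 7.45 and 8.74 in NSC (1.27 ± 0.42). NSC 2 was the lowest culture in both. Rrm1, a subunit of the reductase that makes deoxynucleotides, differed by 0.94. Of 31 genes of recombination repair and the Fanconi pathway (median 0.84), 5 were apart and higher, and 1 after either rescaling. The count was 1 without NSC 2, 14 without NSC 1, 12 without NSC 3 and 10 without Hras 3, and the median was 0.35 without NSC 2. Fancd2, which is loaded onto DNA crosslinks, had levels of 8.38, 8.23 and 8.21 in the Hras lines, against 7.15, 5.96 and 7.44 in NSC (1.42 ± 0.36). The partners Brca1 and Bard1 differed by 1.11 and 1.34.

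Counts for ribosome biogenesis and nucleotide synthesis also turned on the NSC cultures. Of 49 genes of ribosome assembly, 46 had a positive difference (median 0.66) and 6 were apart and higher, with 0 after either rescaling and 1 without NSC 2, against 15 without NSC 3. The median was 0.37 without NSC 2. Nop14, a factor of the small subunit, had levels of 8.60, 9.36 and 8.69 in the Hras lines, against 7.37, 7.28 and 8.28 in NSC (1.24 ± 0.35). Of 28 genes of purine and pyrimidine synthesis (median 0.52), 2 were apart and higher, 0 after either rescaling or without NSC 2, and 9 without NSC 1, and the median was 0.21 without NSC 2. They were Ppat, the committed enzyme of purine synthesis (1.36), and Ctps, which makes CTP (1.21).

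Genes of p53 and the inhibitors of cyclin-dependent kinases lay on both sides. Of 30 such genes, 17 had a negative and 13 a positive difference (median -0.29), against 6521 negative and 14166 positive among all 20690 genes. The list means overlapped between the groups. There were 6 genes apart and lower and 2 higher, and the lower count was 6 after quantile normalization and 7 after centring. Without NSC 1 the higher count was 5, and without NSC 2 the median was -0.10. Eda2r, a death receptor that p53 induces, had levels of 5.18, 6.22 and 8.26 in the Hras lines, against 10.35, 9.93 and 8.61 in NSC (-3.08 ± 0.76). Btg2, an antiproliferative p53 target, had levels of 7.68, 7.32 and 7.50 in the Hras lines, against 9.17, 9.84 and 8.43 in NSC (-1.65 ± 0.42). The others apart and lower were Trp53inp1 (-1.85), the death receptor Fas (-1.64), Ccng1 (-1.29) and Phlda3 (-1.09). Plk2, a kinase that p53 induces, went against them, with levels of 11.31, 11.83 and 10.63 in the Hras lines, against 9.63, 9.46 and 9.66 in NSC (1.67 ± 0.35). Plk3 also was higher, by 1.24.

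Astrocyte genes were the clearest group on the lower side. Of 36 measured, 26 had a negative and 10 a positive difference, with a median of -1.38, and 12 were apart and at least 2-fold lower and 0 higher. The lower count was 13 after either rescaling, and between 11 and 19 when 1 Hras or NSC array was left out, the 19 being without Hras 1. The higher count was 2 without NSC 2 and 1 without Hras 1 or Hras 3. The median was -0.71 without NSC 2. The list mean relative to the NSC mean was -1.42, -1.01 and -1.28 in Hras 1, 2 and 3, against -0.34, 0.54 and -0.20 in NSC 1, 2 and 3, and it was the only one of 53 lists whose mean was lower in every Hras line than in every NSC culture, while 22 were above and 30 overlapped. Grm3, a metabotropic glutamate receptor, had levels of 4.92, 6.22 and 5.16 in the Hras lines, against 8.78, 9.59 and 9.62 in NSC (-3.89 ± 0.55, limma adjusted p 0.073). Apoe, the main lipid carrier of the brain, had levels of 8.77, 9.57 and 9.51 in the Hras lines, against 9.94, 13.03 and 12.85 in NSC (-2.66 ± 1.24). Gfap, the intermediate filament of astrocytes, had levels of 5.61, 6.51 and 6.57 in the Hras lines, against 6.64, 8.94 and 8.40 in NSC. Apoe and Gfap in NSC 1 were close to the Hras lines, while NSC 2 and 3 were far above. Acsbg1, an acyl-CoA synthetase, differed by -2.04, Slc25a18, a mitochondrial glutamate carrier, by -2.93, and Aqp4, the water channel, by -1.49.

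Transcription factors of neural stem cells were lower for a subset. Of 43 (median -0.36), 7 were apart and lower and 1 higher. The lower count was 9 after quantile normalization, 10 after centring and 12 without NSC 1, and the higher count was 2 without Hras 1, NSC 2 or NSC 3. The median ran between -0.59 and -0.14 without 1 array. Dbx2, a homeobox factor, had levels of 6.63, 6.86 and 6.76 in the Hras lines, against 8.58, 9.18 and 9.02 in NSC (-2.18 ± 0.30, limma adjusted p 0.071). Zic1, a zinc finger factor of the dorsal and septal forebrain, had levels of 5.37, 6.02 and 5.62 in the Hras lines, against 7.01, 8.30 and 8.63 in NSC (-2.31 ± 0.78). Otx2, of the anterior brain, had levels of 4.92, 5.29 and 4.99 in the Hras lines, against 7.78, 7.59 and 6.07 in NSC (-2.08 ± 0.41). All 3 factors lay in a narrow band in the Hras lines, and Otx2 was at the dim limit there. Pax6 (-1.24), Nr2e1 (-1.12) and Otx1 (-1.10), all known regulators of forebrain progenitors, were also apart and lower. Nr2f2, also called COUP-TFII, was the exception, with levels of 7.83, 7.90 and 9.15 in the Hras lines, against 6.31, 6.32 and 5.68 in NSC (2.19 ± 0.54). Sox2, the core factor of neural stem cells and a member of this list, had levels of 10.98, 11.55 and 11.06 in the Hras lines, against 10.57, 10.92 and 10.79 in NSC (0.43).

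Surface and structural genes of radial glia (24 measured, median -0.38) included 5 apart and lower and 1 higher, the second count being 0 without NSC 3 and 2 without Hras 1. The median ran between -0.76 and -0.18 without 1 array. Itgb8, an integrin chain that activates TGF-beta, had levels of 8.58, 9.37 and 6.93 in the Hras lines, against 10.23, 11.45 and 10.92 in NSC (-2.58 ± 0.58). Slc1a3, the glutamate carrier GLAST, had levels of 9.30, 10.78 and 10.47 in the Hras lines, against 12.18, 12.21 and 11.76 in NSC (-1.87 ± 0.74). Both were lower in every Hras line, with the lowest GLAST level in Hras 1 and the lowest Itgb8 level in Hras 3. Lfng differed by -2.63 and Bmpr1b, a receptor for bone morphogenetic proteins, by -1.66. The intermediate filament genes Nes and Vim differed by -0.15 and 0.23, and their groups overlapped.

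Oligodendrocyte precursor genes differed between the Hras lines. Of 23 (median 0.72), 3 were apart and higher, and the list mean relative to the NSC mean was 1.62, 0.81 and -0.67 in Hras 1, 2 and 3, against -0.27, 0.21 and 0.07 in NSC 1, 2 and 3. In Erbb2 1, 2 and 3 the list mean was 1.64, 0.99 and -0.19, so that the Erbb2 lines ran in the same order. Hras 3 was below all NSC cultures and the other Hras lines above them, and without Hras 3 the count was 13 and the median 1.31, against a median of 0.24 without Hras 1. The lower count, 0 with all arrays, was 5 without NSC 1, 3 without Hras 1 and 1 without Hras 2. The 3 genes apart were Pdgfra, the proteoglycan Cspg4 (NG2) and Vcan, the matrix proteoglycan versican. Cspg4 had levels of 10.04, 8.93 and 8.24 in the Hras lines, against 6.63, 6.84 and 7.92 in NSC (1.94 ± 0.79). Sox10, the lineage's master regulator, had levels of 10.59, 8.61 and 6.56 in the Hras lines, against 6.71, 6.25 and 6.73 in NSC, so that Hras 3 lay among the NSC cultures. Sox8, a factor related to Sox10, differed by -1.10 and the Notch ligand Dll1 by -1.02, and both overlapped.

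Of 32 neuroblast and neuronal genes (median 0.27), 6 were apart and higher and 1 lower, with 3 higher after quantile normalization and 2 after centring. The lower count was 3 without Hras 1 and 0 without Hras 2, NSC 1 or NSC 2. The median ran between 0.18 and 0.46 without 1 array. Nefl, the light neurofilament chain, had levels of 9.71, 9.76 and 10.98 in the Hras lines, against 7.04, 5.71 and 6.11 in NSC (3.86 ± 1.00). Nefm, the medium chain, had levels of 7.08, 7.65 and 7.58 in the Hras lines, against 5.21, 4.99 and 4.85 in NSC (2.42 ± 0.68), and was dim in every NSC culture. Tubb3, the neuronal tubulin (1.25), Syt1 (1.75), the RNA-binding Celf4 (1.04) and the homeobox factor Dlx1 (1.04) were the others. Snap25, of the synaptic fusion complex, was apart and lower (-1.06).

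Genes for neural signalling went both ways. Of 44 glutamate and GABA receptors and transporters (median -0.08), 7 were apart and lower and 2 higher, with 6 higher without Hras 3 and a median between -0.28 and 0.09 without 1 array. Besides Slc6a11, Grm3 and Slc1a3, the lower ones included Gabrg1, a GABA-A receptor subunit, with levels of 6.64, 8.05 and 5.31 in the Hras lines, against 11.16, 10.20 and 8.64 in NSC (-3.33 ± 0.89). Hras 2 was the highest Hras line. The GABA-B receptor Gabbr1 (-1.83) and the AMPA receptor subunit Gria1 (-1.77) were also in the lower set. The higher ones were Grik1, a kainate receptor subunit, and Gabra3, another GABA-A subunit. Grik1 had levels of 6.04, 5.94 and 6.85 in the Hras lines, against 5.15, 4.64 and 4.81 in NSC (1.41 ± 0.29), dim in all NSC cultures. Gabra3 had levels of 9.17, 7.04 and 5.56 in the Hras lines, against 5.49, 4.88 and 4.63 in NSC (2.26), so that Hras 3 was hardly above NSC 1.

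Of 50 potassium, sodium and calcium channels (median -0.06), 5 were apart and lower and 1 higher, with 2 higher without Hras 3 or NSC 2, and a median between -0.28 and 0.18 without 1 array. Kcnc1, a potassium channel of fast-firing neurons, had levels of 5.41, 6.72 and 6.06 in the Hras lines, against 7.57, 9.15 and 9.95 in NSC (-2.83 ± 0.85). Kcnj16, an inward rectifier of glia, differed by -2.18 and Kcnma1, the large-conductance calcium-activated channel, by -1.81. Kcnn4, the intermediate-conductance channel, was the one apart on the higher side, with levels of 7.33, 7.16 and 10.52 in the Hras lines, against 6.90, 6.10 and 6.22 in NSC (1.92 ± 0.77), and Hras 3 was far above the other lines. Of 34 synaptic vesicle and exocytosis genes (median 0.10), 4 were apart and higher and 2 lower, the lower count being 4 without NSC 1 and 1 without Hras 2 or NSC 2, and the median ran between -0.02 and 0.19. Apart from Syt4 and Syt1, the higher ones included Syt6 (1.07), another synaptotagmin. Rab3b, a GTPase of secretory vesicles, was lower (-1.60).

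The list of guidance molecules was the longest, and its counts are to be set beside the shares over all genes, 4.25% higher and 0.696% lower. Of 60 ephrins, semaphorins, slits and their receptors (median 0.32), 10 were apart and higher and 2 lower, with 8 and 3 after quantile normalization and 6 and 3 after centring. The lower count was 1 without NSC 2, and the median ran between 0.20 and 0.51 without 1 array. Sema3e, a secreted semaphorin, had levels of 8.20, 7.63 and 6.70 in the Hras lines, against 5.50, 4.96 and 5.31 in NSC (2.25 ± 0.39, limma adjusted p 0.087). Unc5b, a netrin receptor, had levels of 7.64, 8.91 and 10.51 in the Hras lines, against 6.91, 5.83 and 6.85 in NSC (2.49 ± 0.87). Sema3e was highest in Hras 1 and Unc5b in Hras 3. Semaphorins made up 7 of the 10, the others of them being Sema7a (2.41), Sema5a (1.94), Sema4c (1.51), Sema4d (1.44), Sema3a (1.28) and Sema3f (1.10). The remaining ones were Unc5c (2.00) and the ephrin Efna1 (1.13). The lower ones were the ephrin receptor Epha5 (-1.84) and the slit receptor Robo2 (-1.10).

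Integrins and matrix genes were higher in the Hras lines by wide margins for a few members. Of 26 integrin chains (median 0.31), 6 were apart and higher and 1 lower, with 5 and 1 after quantile normalization and 4 and 1 after centring, and the median ran between 0.13 and 0.50 without 1 array. Integrins are paired receptors for the matrix, and all 6 were alpha chains, namely Itga8, Itga1 (2.90), Itga4 (2.71), Itga9 (2.16), Itga3 (1.83) and Itga2 (1.51). Itga1, which binds collagen, had levels of 9.79, 9.32 and 8.07 in the Hras lines, against 6.32, 6.38 and 5.77 in NSC (2.90 ± 0.53). Itga4, which binds fibronectin and the endothelial molecule VCAM-1, had levels of 10.14, 10.32 and 9.29 in the Hras lines, against 7.66, 6.86 and 7.09 in NSC (2.71 ± 0.49). Their common partner Itgb1 had levels of 11.40, 11.69 and 11.29 in the Hras lines, against 10.75, 10.69 and 10.81 in NSC (0.71). Hras 3 was the lowest Hras line in Itga1, Itga4, Itga8 and Itga9. The chain apart and lower was Itgb8.

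Of 23 basement membrane genes (median 0.21), 2 were apart and higher, with 4 without Hras 1 and 1 lower without NSC 1, and the median ran between 0.04 and 0.44 without 1 array. Lama4, a laminin chain, had levels of 9.32, 9.76 and 9.02 in the Hras lines, against 6.30, 7.27 and 5.41 in NSC (3.04 ± 0.46, limma adjusted p 0.074). Col18a1, the source of endostatin, had levels of 7.81, 9.68 and 9.48 in the Hras lines, against 7.50, 6.81 and 7.23 in NSC (1.81 ± 0.47). Of 40 other collagens and collagen-processing genes (median 0.46), 9 were apart and higher and 0 lower. The count was 7 after quantile normalization and 4 after centring, with 1 lower after either rescaling and without Hras 3 or NSC 2, and the median was 0.30 without Hras 2. They included crosslinking and hydroxylating enzymes as well as proteins that are not enzymes. Pcolce, which enhances the removal of the procollagen tail, had levels of 10.89, 11.35 and 10.64 in the Hras lines, against 8.23, 8.76 and 7.30 in NSC (2.86 ± 0.41, limma adjusted p 0.073). Its relative Pcolce2 had levels of 9.99, 8.53 and 10.15 in the Hras lines, against 7.43, 6.54 and 6.40 in NSC (2.77 ± 0.64). Both lay more than 1 above NSC in every Hras line. The crosslinking enzymes Loxl2 (1.75) and Loxl3 (1.61), the lysyl hydroxylases Plod3 (1.36) and Plod1 (1.21) and the prolyl hydroxylase subunit P4ha2 (1.34) were also apart. Col6a1 (1.25) and Col6a2 (1.03), chains of collagen VI, were the only 2 collagens among the 9.

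Matricellular proteins and proteoglycans (55 measured, median 0.67) had 12 apart and higher and 1 lower, the same counts after quantile normalization, and 9 and 1 after centring. The lower count was 3 without NSC 1 and 2 without Hras 3. Nov, a matricellular signalling protein, had levels of 7.64, 8.69 and 8.38 in the Hras lines, against 5.87, 4.90 and 6.48 in NSC (2.49 ± 0.45). Gpc1, a glypican that presents growth factors, had levels of 9.82, 10.24 and 9.80 in the Hras lines, against 8.39, 9.0 and 8.47 in NSC (1.33 ± 0.26). Gpc1 was even across the Hras lines. Others were high in 1 line. Has2, which makes hyaluronan, had levels of 9.46, 6.55 and 6.77 in the Hras lines, against 5.74, 5.10 and 5.13 in NSC (2.27), and Postn, or periostin, had 9.58, 5.55 and 4.90 in the Hras lines, against 4.73, 4.62 and 4.59 in NSC (2.03). Bgn, or biglycan, was instead highest in Hras 3, with 5.66, 6.98 and 9.01 in the Hras lines, against 5.49, 5.00 and 5.39 in NSC (1.92). Emilin1 (1.76), Fbn1 (1.75), Tgfbi (1.89), Fbln1 (1.50), Cspg4 (1.94) and Vcan (1.65) were also apart, as was Spp1, or osteopontin (4.10). Fbln2 went the other way, with levels of 6.64, 7.20 and 9.75 in the Hras lines, against 9.96, 10.89 and 10.95 in NSC (-2.74 ± 0.78).

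Of 49 matrix proteases and inhibitors (median 0.33), 4 were apart and higher and 1 lower. The higher count was 11 without Hras 1, 8 without Hras 3 and 7 without NSC 3, and the lower count was 3 after either rescaling or without Hras 1, and 2 without NSC 2 or NSC 3. Adamts5, an aggrecan-cleaving protease, had levels of 8.17, 8.72 and 6.56 in the Hras lines, against 5.38, 5.03 and 4.97 in NSC (2.69 ± 0.48, limma adjusted p 0.090). Adamts1 (2.52), a related protease, and Plaur were among the others. Plat, the tissue plasminogen activator, was lower, with levels of 10.39, 10.58 and 10.32 in the Hras lines, against 11.74, 11.74 and 11.30 in NSC (-1.16 ± 0.22, limma adjusted p 0.096). The receptor of urokinase was thus higher and this activator lower, each in all 3 lines.

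Genes of the actin cytoskeleton (44 measured, median 0.81) had 7 apart and higher and 1 lower, with 4 and 3 after either rescaling. Leaving out Hras 1 gave 19 higher, NSC 3 gave 13 and NSC 1 gave 11, and the lower count was 2 without Hras 2, Hras 3, NSC 1 or NSC 3. Pdlim1, an actin-associated adaptor, had levels of 9.23, 8.76 and 9.83 in the Hras lines, against 7.82, 6.78 and 6.66 in NSC (2.19 ± 0.66). Cnn2, a calponin, differed by 1.82, Tpm1, a tropomyosin, by 1.68, and Vcl, or vinculin, by 1.54. Tagln, the smooth muscle protein SM22, was lower, with levels of 5.55, 6.28 and 6.12 in the Hras lines, against 8.71, 7.72 and 6.86 in NSC (-1.78 ± 0.47). Acta2, smooth muscle actin, differed by -1.63, with Hras 3 at the level of NSC 3. Of 30 transcription factors of mesenchymal cells (median 0.72), 6 were apart and higher and 0 lower, with 3 higher after either rescaling and 12 without Hras 1. Prrx1, a homeobox factor of mesenchyme, had levels of 11.22, 11.65 and 11.72 in the Hras lines, against 8.66, 7.54 and 9.74 in NSC (2.89 ± 0.48, limma adjusted p 0.083). Twist1, a regulator of epithelial to mesenchymal transition, had levels of 7.83, 7.83 and 8.22 in the Hras lines, against 6.73, 6.46 and 6.05 in NSC (1.55 ± 0.31). Tead4 (1.26), Twist2 (1.14) and Snai2 (1.08) were among the others.

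**Figure D2:**
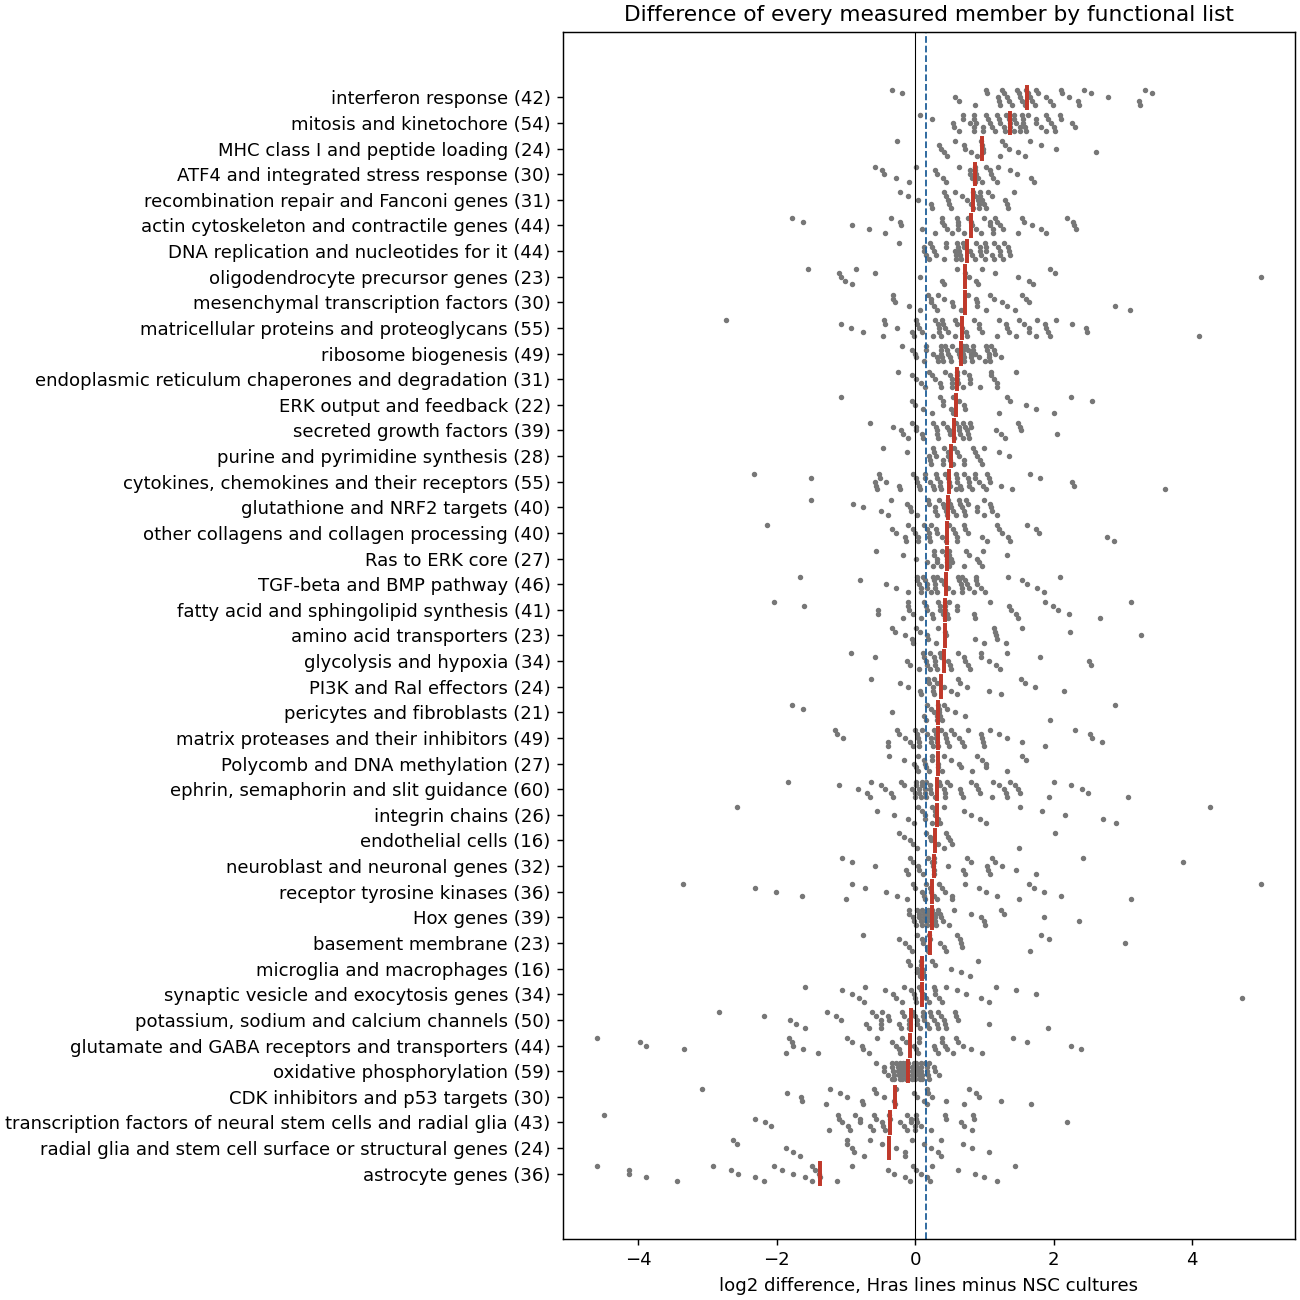
Difference of every measured member (grey point) in each functional list, Hras lines minus NSC cultures on the log2 scale, with the list median as a red bar, the number of members in parentheses and the median of all genes (0.16) as a dashed line. Interferon and mitosis genes have the highest medians, 1.61 and 1.36, and astrocyte genes the lowest, -1.38, with wide overlap among lists in between.

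The interferon response had the highest median of the lists described, 1.61 over 42 genes, and the lines differed strongly in it. Interferons are signals of infection that induce a shared set of antiviral genes, many through the element GAAANNGAA, which is read by IRF factors. The promoters of Irgm1 and Eif2ak2 are shown because both were apart and hold that element. Capitals mark the matches, searched on both strands, where neighbouring matches may overlap. The sequences are from RefSeq as above.
Irgm1, GRCm38.p6 chr11:48871371-48871670 (-): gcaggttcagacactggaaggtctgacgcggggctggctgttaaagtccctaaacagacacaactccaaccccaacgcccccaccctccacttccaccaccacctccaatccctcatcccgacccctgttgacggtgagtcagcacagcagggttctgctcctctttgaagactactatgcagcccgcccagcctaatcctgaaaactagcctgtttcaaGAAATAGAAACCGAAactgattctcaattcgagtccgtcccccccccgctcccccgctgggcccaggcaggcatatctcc
Eif2ak2, GRCm38.p6 chr17:78882523-78882822 (-): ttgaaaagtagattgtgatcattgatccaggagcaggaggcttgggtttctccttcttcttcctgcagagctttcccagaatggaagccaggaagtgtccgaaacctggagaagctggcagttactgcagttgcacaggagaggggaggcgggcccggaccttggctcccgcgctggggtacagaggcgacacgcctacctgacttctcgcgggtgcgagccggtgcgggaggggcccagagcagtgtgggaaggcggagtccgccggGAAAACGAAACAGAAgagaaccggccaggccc
Of the 30 interferon genes with a RefSeq promoter, 17 (56.7%) held the element, against 1389 of 14883 genes (9.33%). No inference about any factor's binding is made from these letters.

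Of the 42 interferon genes, 40 had a positive difference and 18 were apart and at least 2-fold higher, with 0 lower. The count was 14 after quantile normalization and 9 after centring, 15 without Hras 3 and 38 without Hras 1, and the median was 0.92 without Hras 3. The list mean relative to the NSC mean was 0.32, 1.58 and 3.19 in Hras 1, 2 and 3, against 0.05, -0.23 and 0.18 in NSC 1, 2 and 3. Hras 1 was thus only slightly above NSC and Hras 3 far above. Irgm1, a GTPase of cell-autonomous immunity, had levels of 10.29, 9.32 and 10.83 in the Hras lines, against 6.24, 6.67 and 7.58 in NSC (3.32 ± 0.62, limma adjusted p 0.094). Eif2ak2, the RNA-activated kinase PKR, had levels of 7.50, 8.49 and 8.54 in the Hras lines, against 6.20, 5.89 and 6.45 in NSC (2.00 ± 0.49). Ifit2, an antiviral RNA-binding protein, had levels of 7.89, 7.71 and 7.88 in the Hras lines, against 6.61, 6.69 and 6.00 in NSC (1.40 ± 0.22, limma adjusted p 0.081). These genes were above NSC in Hras 1 as well. Others were almost flat there. Irf7, the main amplifier of the response, had levels of 5.69, 7.51 and 10.82 in the Hras lines, against 5.66, 5.42 and 5.61 in NSC (2.44). Ifi44 had levels of 5.80, 8.68 and 11.52 in the Hras lines, against 5.55, 5.16 and 5.60 in NSC (3.23). Ddx58, the RNA sensor RIG-I, differed by 2.37 and Trim25, the ubiquitin ligase that activates it, by 2.79.

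Of 24 genes of MHC class I and peptide loading (median 0.97), 3 were apart and higher and 0 lower, with 9 higher without Hras 1 or NSC 1, 5 without NSC 2 and 2 without Hras 3. The median was 0.41 without Hras 3. The list mean relative to the NSC mean was 0.24, 0.58 and 2.34 in Hras 1, 2 and 3, against 0.36, 0.03 and -0.40 in NSC 1, 2 and 3, so that Hras 1 lay below NSC 1. Erap1, which trims peptides, had levels of 7.02, 7.05 and 7.77 in the Hras lines, against 5.66, 5.43 and 5.79 in NSC (1.66 ± 0.56). H2-Q4, a class I heavy chain, had levels of 7.56, 8.23 and 11.44 in the Hras lines, against 6.83, 6.44 and 6.11 in NSC (2.61 ± 1.41), with possible sharing of probes among the near-identical class I genes. The third was Psmb8, a subunit of the immunoproteasome (2.04), and all 3 were highest in Hras 3. Of 55 cytokines, chemokines and receptors (median 0.48), 7 were apart and higher and 1 lower. The higher count was 14 without Hras 1 and 12 without NSC 1, the lower count was 3 without NSC 3, 2 without Hras 2 and 0 without NSC 1, and the median was 0.28 without Hras 3 and 0.32 without NSC 2. Cxcl14, a chemokine, had levels of 8.77, 8.42 and 8.92 in the Hras lines, against 6.89, 6.52 and 7.28 in NSC (1.80 ± 0.24, limma adjusted p 0.071). Il33, a nuclear alarm cytokine, had levels of 12.14, 8.60 and 10.09 in the Hras lines, against 6.87, 6.25 and 6.91 in NSC (3.60 ± 0.80). Ccl5, which attracts T cells, had levels of 7.43, 8.54 and 9.91 in the Hras lines, against 6.47, 6.06 and 6.46 in NSC (2.30 ± 0.52). Cxcl14 was even across the lines, while Il33 was highest in Hras 1 and Ccl5 in Hras 3. The receptor genes Il13ra1 (2.26) and Il1rap (1.65) and the chemokines Cxcl5 (1.08) and Cxcl2 (1.04) were also apart, and the interleukin 11 receptor Il11ra1 was lower (-1.51).

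Lists of stress and metabolism genes had medians on both sides of that of all genes. Of 30 genes of ATF4 and the integrated stress response, 25 had a positive difference (median 0.86) and 7 were apart and higher, with 3 after either rescaling, 13 without Hras 1 and 11 without NSC 3. Tars, a transfer RNA synthetase, had levels of 9.54, 9.41 and 9.68 in the Hras lines, against 7.91, 7.05 and 8.52 in NSC (1.72 ± 0.54). Atf3 (1.67), the pseudokinase Trib3 (1.47), Nupr1 (1.37), the stress factor Ddit3, or CHOP (1.20), the synthetase Aars (1.10) and the phosphatase subunit Ppp1r15a (1.02) were the others. Of 31 genes of endoplasmic reticulum chaperones and degradation (median 0.60), 5 were apart and higher, with 1 after either rescaling and 3 without Hras 2. Edem1, which directs misfolded glycoproteins to degradation, had levels of 9.80, 10.13 and 10.14 in the Hras lines, against 8.76, 8.98 and 8.80 in NSC (1.18 ± 0.19, limma adjusted p 0.083). Atf6, a sensor of unfolded protein, had levels of 9.10, 9.35 and 9.72 in the Hras lines, against 7.52, 8.06 and 8.24 in NSC (1.45 ± 0.31). The sensor kinase Eif2ak3, or PERK, differed by 1.18. In each of these 3 every Hras line lay above every NSC culture. Of 23 amino acid transporters (median 0.43), 5 were apart and higher, 3 after quantile normalization and 2 after centring, with 1 lower without NSC 1. Slc7a3, a carrier of cationic amino acids, had levels of 7.66, 8.12 and 9.15 in the Hras lines, against 5.62, 6.18 and 6.42 in NSC (2.23 ± 0.86). The glutamine carriers Slc1a5 (1.54) and Slc38a2 (1.31) were apart too, as were Slc36a1 (1.18) and Slc6a6.

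Enzymes of fatty acid and sphingolipid synthesis (41 measured, median 0.43) had 7 apart and higher and 1 lower, with 7 and 2 after quantile normalization and 6 and 2 after centring, and 2 lower without Hras 1 or NSC 3. Fads3, a desaturase that acts on sphingoid bases, had levels of 9.91, 10.26 and 9.89 in the Hras lines, against 7.29, 7.29 and 6.11 in NSC (3.12 ± 0.38, limma adjusted p 0.071). Cers4, a ceramide synthase, had levels of 9.79, 8.45 and 8.77 in the Hras lines, against 6.57, 6.50 and 5.91 in NSC (2.68 ± 0.40, limma adjusted p 0.074). Agpat2, which makes phosphatidic acid, had levels of 8.06, 8.01 and 8.75 in the Hras lines, against 6.78, 5.80 and 6.05 in NSC (2.06 ± 0.36). In all 3 every Hras line lay more than 1 above the highest NSC culture. Acsl4 (2.23) and Acsl1 (1.99), which activate long fatty acids, Ugcg, which makes glucosylceramide (1.49), and Cers6 (1.46) were also apart. The lower one was Acsbg1.

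Of 34 genes of glycolysis and the hypoxia response (median 0.42), 3 were apart and higher, 1 after either rescaling, 6 without Hras 1 and 14 without NSC 1, whose list mean was 0.75 above the NSC mean. The median was 0.82 without NSC 1 and 0.28 without NSC 3. Hk2, an inducible hexokinase, had levels of 7.50, 8.04 and 7.74 in the Hras lines, against 6.89, 5.51 and 6.90 in NSC (1.33 ± 0.41). Pfkp, a phosphofructokinase, differed by 1.80, and Ndrg1, which hypoxia induces, by 2.51. Of 40 genes of glutathione and the NRF2 response (median 0.47), 2 were apart and higher, and after either rescaling 0 were higher and 2 lower. The higher count was 6 without Hras 1, 5 without NSC 1 and 1 without Hras 3, and the lower count was 3 without NSC 3, 2 without Hras 3 and 1 without NSC 1. The median was 0.27 without Hras 3 or NSC 3. Txnrd1, thioredoxin reductase, had levels of 9.64, 9.63 and 9.48 in the Hras lines, against 8.68, 8.21 and 8.59 in NSC (1.09 ± 0.21). The other was Gsta1, a glutathione transferase (1.09), whose near-identical relatives may share its probes. Oxidative phosphorylation had 0 of 59 genes apart in either direction and a median of -0.11, which ran between -0.28 and 0.06 without 1 array, and 0 with an unadjusted p under 0.05 in limma. Its members spanned a narrow range of differences in the plot of every measured member.

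Of 46 TGF-beta and BMP pathway genes (median 0.44), 6 were apart and higher and 1 lower, with 5 and 1 after either rescaling, 10 higher without Hras 1 and 2 lower without Hras 3. Among ligands, Bmp2 had levels of 6.23, 6.36 and 8.33 in the Hras lines, against 4.88, 5.04 and 4.71 in NSC (2.10 ± 0.49), dim in all NSC cultures. Tgfb3 had levels of 7.41, 7.49 and 8.15 in the Hras lines, against 6.00, 6.03 and 5.73 in NSC (1.76 ± 0.58), and Tgfb1 differed by 1.87. Among receptors, Acvr1 had levels of 8.84, 8.90 and 8.88 in the Hras lines, against 6.57, 7.29 and 7.92 in NSC (1.61 ± 0.35), and Tgfbr2 differed by 1.33. Hras 3 was the highest line in all 3 ligands. Bmpr1b was lower (-1.66), and Fstl1, a secreted follistatin relative, higher (1.55). Inhba, the activin A subunit, differed by 0.89 with little spread within either group.

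Of 39 Hox genes, which set position along the body axis and are usually silent in the forebrain, 35 had a positive difference (median 0.24) and 5 were apart and at least 2-fold higher, with 3 after quantile normalization and 2 after centring, and the median ran between 0.07 and 0.35 without 1 array. They lie in the front of the HoxA cluster. Hoxa5 had levels of 7.46, 8.43 and 8.07 in the Hras lines, against 5.60, 5.89 and 5.36 in NSC (2.37 ± 0.67). Hoxa2 had levels of 6.86, 6.20 and 7.59 in the Hras lines, against 5.07, 4.98 and 5.05 in NSC (1.85 ± 0.48), dim in every NSC culture. Hoxa7 (1.24) and Hoxa6 (1.00) were among the others, and Hoxa3 (0.99) and Hoxa4 (0.96) also did not overlap but missed the 2-fold mark. The cluster members Hoxa9, Hoxa10, Hoxa11 and Hoxa13 overlapped between the groups. Hoxa4 was well above the dim limit in NSC too, at 7.57, 7.61 and 7.17.

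**Figure D3:**
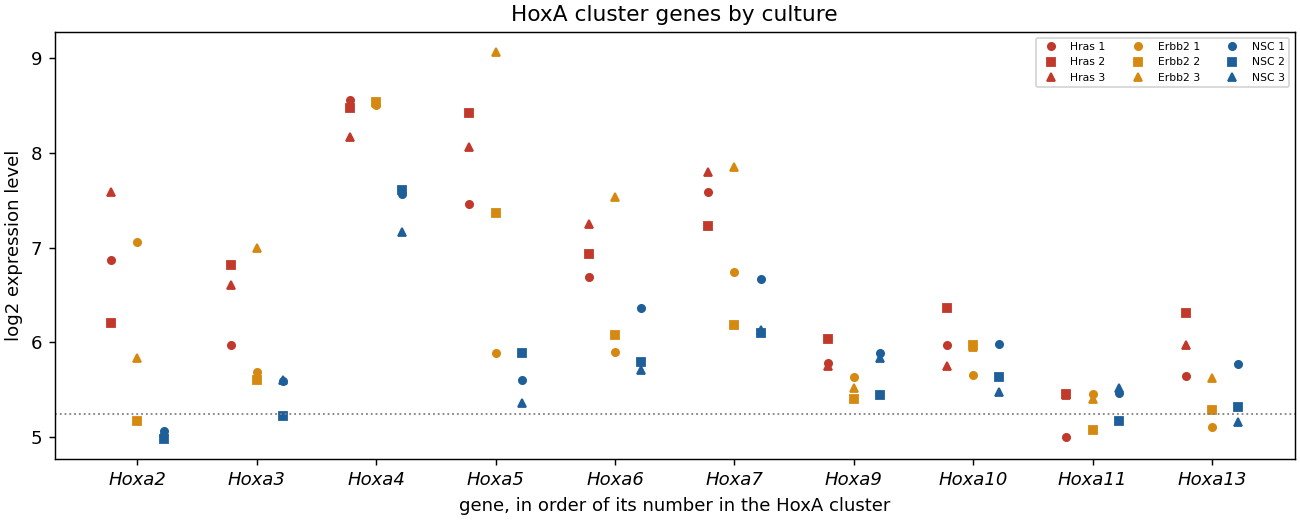
Log2 expression level of HoxA cluster genes from Hoxa2 on in each culture, Hras lines in red, Erbb2 lines in orange and NSC cultures in blue, with the dim limit of 5.24 as a dotted line. From Hoxa2 to Hoxa7 every Hras line lies above every NSC culture, and from Hoxa9 to Hoxa13 the groups overlap near the dim limit.

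Of 27 genes of Polycomb and DNA methylation (median 0.32), 4 were apart and higher, 2 after quantile normalization, 1 after centring and 2 without NSC 2. The median ran between 0.12 and 0.58 without 1 array. Pcgf2, a subunit of Polycomb complex 1, had levels of 7.39, 7.72 and 7.73 in the Hras lines, against 5.57, 6.24 and 6.21 in NSC (1.61 ± 0.30, limma adjusted p 0.090). Kdm6a, which removes the Polycomb mark, differed by 1.02, Hells, a chromatin remodeller that aids DNA methylation, by 1.54, and Uhrf1, which recruits the maintenance methyltransferase, by 1.02. Suz12 and Phf19, of Polycomb complex 2, differed by 0.90 and 0.96 without overlap.

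**Figure D4:**
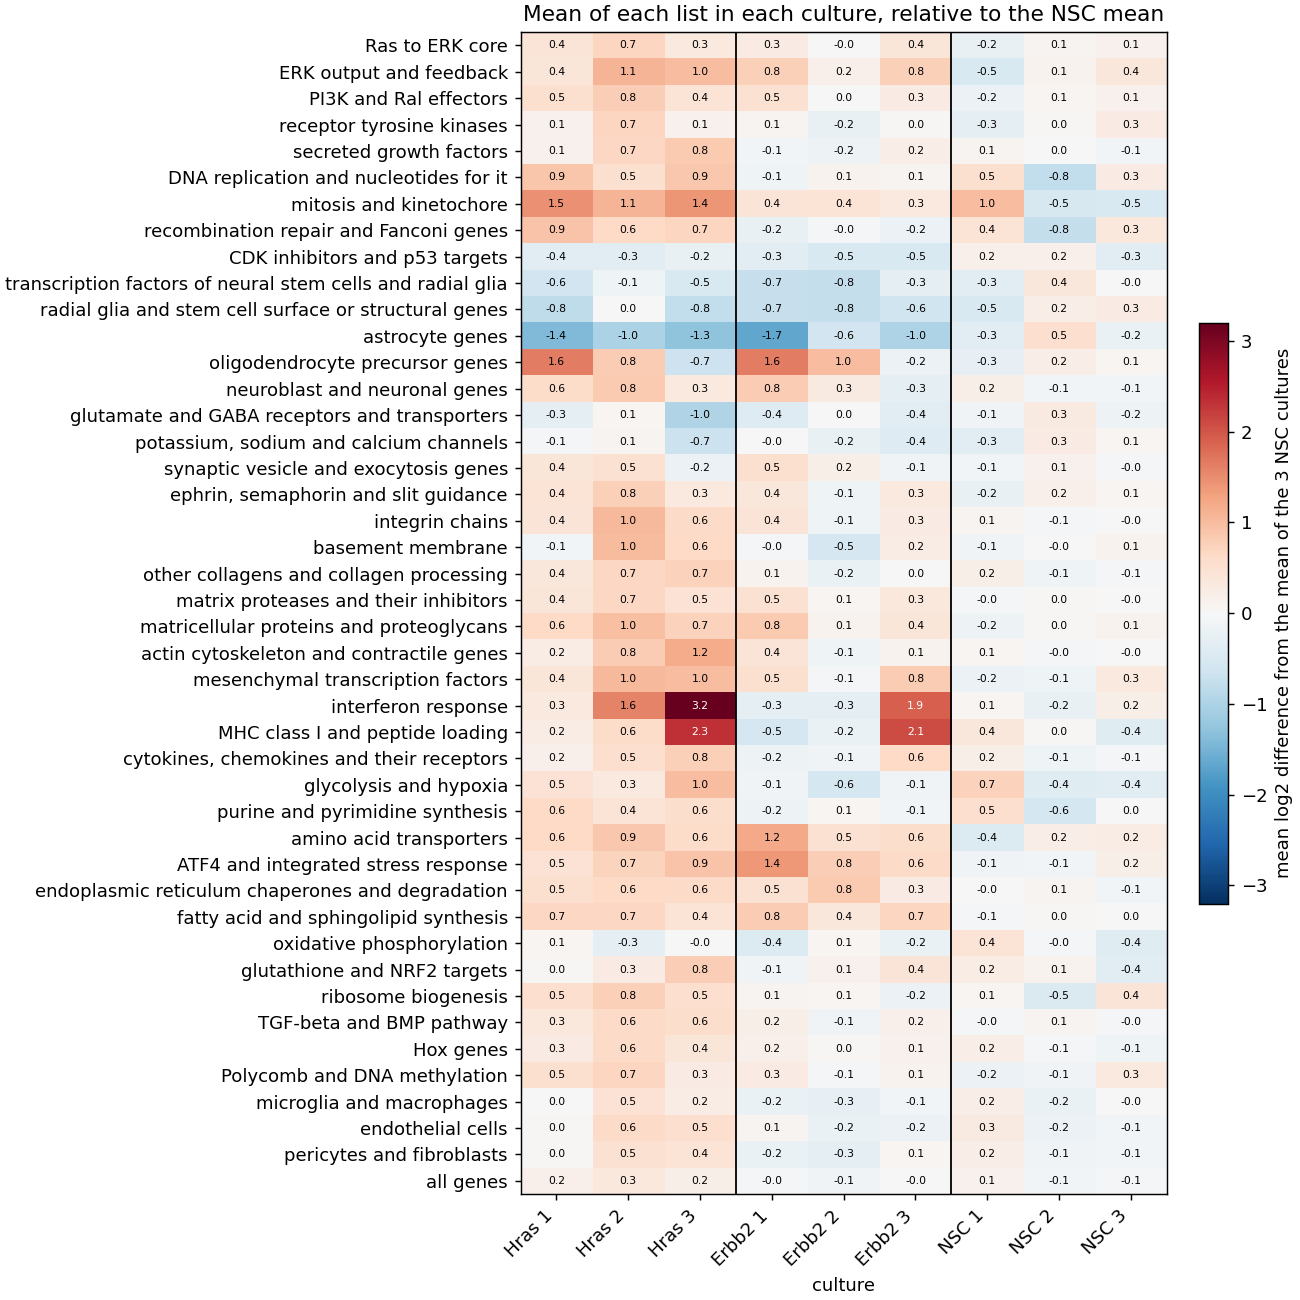
Mean of each functional list in each culture relative to the mean of the 3 NSC cultures, on the log2 scale, with Hras lines on the left, Erbb2 lines in the middle and NSC cultures on the right, and all genes in the last row. Interferon genes run 0.3, 1.6 and 3.2 across the Hras lines, oligodendrocyte precursor genes 1.6, 0.8 and -0.7, and astrocyte genes are negative in all 3.

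The 9 genes with the largest spread among the 3 Hras lines fell into 2 patterns. Hapln1, which links hyaluronan to proteoglycans, had levels of 12.21, 5.14 and 4.65 in Hras 1, 2 and 3, against 5.37, 4.92 and 4.33 in NSC. Cntn1, a contactin, had levels of 12.40, 10.22 and 4.79 in Hras 1, 2 and 3, against 6.75, 8.88 and 7.54 in NSC. Gjc3, an oligodendrocyte connexin, had 12.45, 9.73 and 5.65 in the Hras lines, against 6.66, 8.87 and 6.83 in NSC. These 3 and Neto1, a kainate receptor auxiliary subunit, with 11.43, 9.26 and 4.87 in the Hras lines, against 8.56, 9.31 and 9.22 in NSC, were highest in Hras 1 and lowest in Hras 3. The others ran the opposite way. Trim30a, an interferon-induced gene, had levels of 4.56, 5.85 and 11.56 in Hras 1, 2 and 3, against 5.34, 5.28 and 4.94 in NSC. The nuclear body protein Sp100 had 4.60, 5.18 and 10.70 in the Hras lines, against 4.68, 4.38 and 4.44 in NSC, and Ifi204, a DNA sensor, had 5.13, 8.0 and 11.50 in the Hras lines, against 5.09, 4.68 and 5.52 in NSC. Ly6a, or Sca-1, had 4.89, 6.74 and 11.20 in the Hras lines, against 4.56, 5.20 and 4.21 in NSC. Gja1, the astrocyte connexin 43, had 5.04, 10.18 and 11.12 in the Hras lines, against 10.17, 10.86 and 9.48 in NSC, so that Hras 1 alone lay below all NSC cultures. The spread was not particular to the Hras lines. Among the Erbb2 lines, Hapln1, Cntn1, Gjc3 and Neto1 were also lowest in Erbb2 3, at 5.33, 8.73, 6.58 and 4.78. Trim30a, Sp100, Ifi204 and Gja1 were highest there, at 10.71, 7.10, 9.45 and 10.40. Ly6a was not, with 8.96, 8.35 and 8.76 in Erbb2 1, 2 and 3.

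**Figure D5:**
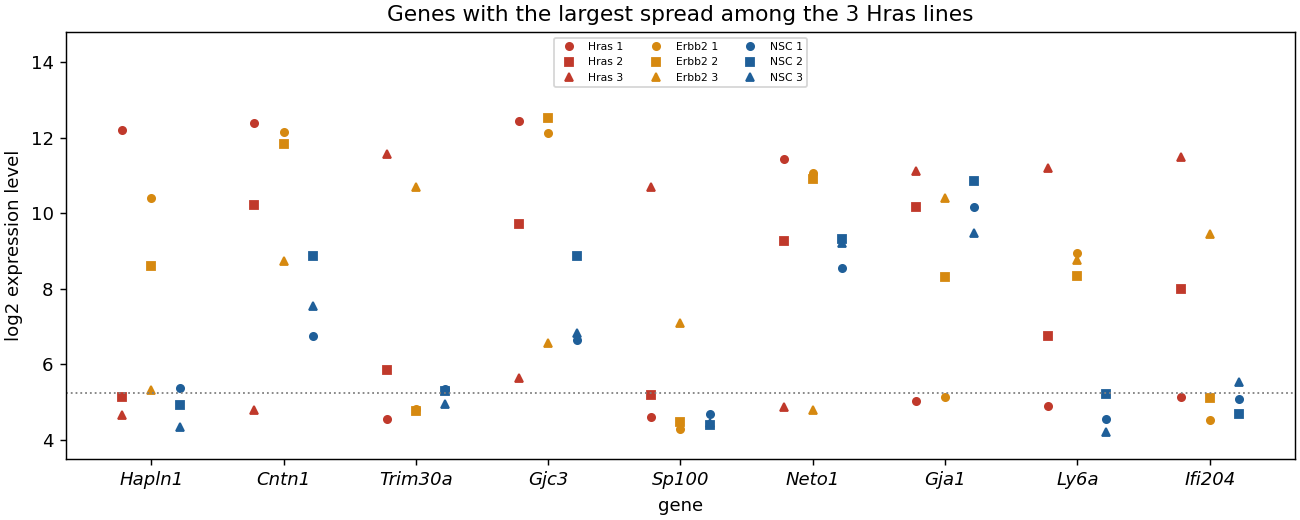
Log2 expression level of the 9 genes with the largest standard deviation among the 3 Hras lines, chosen for that spread, in every Hras line (red), Erbb2 line (orange) and NSC culture (blue), with the dim limit dotted. Hapln1, Cntn1, Gjc3 and Neto1 are highest in Hras 1 and the other 5 in Hras 3.

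A further view took genes that crossed the dim limit as a whole group. There were 25 genes (0.121% of those tested) above the limit in every Hras line, at or under it in every NSC culture and at least 2-fold higher, and 6 (0.029%) the other way. The 25 included Nefm, Hoxa2, Bmp2 and Grik1, described above, and Oas1b, of the oligoadenylate synthetase family, with levels of 5.66, 6.40 and 7.61 in the Hras lines, against 4.89, 4.50 and 4.98 in NSC. Of the 6, the Y-linked genes Ddx3y, Eif2s3y and Uty were 3, and Slc39a12 was another.

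Against the Erbb2 lines, 0 of 20690 genes (0%) had a limma adjusted p under 0.05. By the apart measure 508 genes (2.46%) were higher in the Hras lines and 45 (0.217%) lower, beside a median difference over all genes of 0.29. Mitosis genes had 23 of 54 higher and 0 lower (median 0.96), recombination repair genes 16 of 31 higher (median 1.07) and glycolysis and hypoxia genes 8 of 34 higher (median 0.74). Other lists had a median under that of all genes. They included fatty acid and sphingolipid synthesis (0.0036), ERK output and feedback (-0.02), ATF4 and the integrated stress response (-0.25) and oligodendrocyte precursor genes (-0.31). For Plk1, the Erbb2 lines stood between, with 10.88, 10.94 and 11.08 in the Hras lines, 10.57, 9.82 and 10.14 in the Erbb2 lines and 9.49, 9.19 and 8.56 in NSC. Fancd2 had levels of 8.38, 8.23 and 8.21 in the Hras lines, 7.35, 6.74 and 7.07 in the Erbb2 lines and 7.15, 5.96 and 7.44 in NSC, so that the Erbb2 lines lay among the NSC cultures. Among the leading genes of the comparison with NSC, Tes and Spp1 were also apart from the Erbb2 lines. Tes had 6.53, 7.12 and 5.96 in the Erbb2 lines, and its lowest Hras line was Hras 1 at 7.24. Spp1 had 9.74, 11.37 and 13.11 in the Hras lines, 9.22, 8.60 and 9.67 in the Erbb2 lines and 8.66, 5.30 and 7.97 in NSC. In both genes Hras 1 was thus hardly above the highest Erbb2 line. Hras minus Erbb2 differences of Tes and Spp1 were 2.44 and 2.24 (limma adjusted p 0.39 for both). No other gene of the plot of leading genes was apart by 2-fold between the tumour types. Pdgfra had 11.40, 10.68 and 9.06 in the Erbb2 lines, Itga8 had 11.20, 10.46 and 11.43, and Rfx4 had 4.94, 6.34 and 5.58, with Hras minus Erbb2 differences of 0.15, -0.85 and 0.12 (limma adjusted p 0.93, 0.44 and 0.93). In the interferon list 1 of 42 genes was higher and 0 lower in the Hras lines, beside a median Hras minus Erbb2 difference of 1.22. The list means relative to NSC were 0.32, 1.58 and 3.19 in the Hras lines and -0.28, -0.29 and 1.92 in the Erbb2 lines, so that the tumour types overlapped.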

How the data were processed

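RNA from 9 cultures was measured on Affymetrix Mouse Gene arrays with probes along whole transcripts. The authors deposited a table of log2 values per gene, used here, and a table of linear intensity values for 35511 probe sets without gene names, used as an alternative. The log2 value equalled the log2 of a probe set's intensity for 20171 genes within 0.0001, per the deposited tables. How the authors corrected background, normalized arrays and summarized probes is not given in the sources used here. No column was left unmapped, and 19258 genes carry a current RefSeq symbol.

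The log2 values were tested as deposited with limma 3.58.1 in R 4.3.3 (lmFit and eBayes), with all 9 arrays in 1 fit of group means, 6 residual degrees of freedom, and Benjamini-Hochberg adjustment over 20690 genes. The fit was tested on simulated data. SE is that of the fit. The 53 functional lists hold 1892 entries, of which 1883 matched. Members and lists were chosen with earlier results of these data known. No p-value was computed for a list, and each is described by its counts and median beside those of all genes.

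Genes named are the 15 largest differences each way among genes whose groups do not overlap, with an unadjusted limma p under 0.05 and the higher mean above the dim limit, passing over predicted genes and receptor families. To these come up to 6 members with the smallest p per list, other members where a list's counts are given, the 9 genes with the largest spread among Hras lines, and the transgene, Ets and sex-linked genes. Genes named as markers of other cells, and those that crossed the dim limit, were chosen after their values were seen. A few list members are counted but not reported here. Promoters are RefSeq sequences of GRCm38.p6. Alternatives were quantile normalization, centring, the dim filter, the 6 arrays alone, array weights, trend and robust eBayes, a replicate block, the probe set table and leaving out each array. Leaving out Erbb2 arrays and recounting lists were added after seeing the data. The number of arrays limits the precision.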

Additional observations from a re-analysis of the deposited data

Results flagged for a closer look

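In 6 of 245 genes named, all 3 Hras lines lay on one side of the NSC mean and all 3 Erbb2 lines on the other. The share over all 20690 genes was not counted, so the 6 cannot be set against it. In all 6 the Hras lines were above NSC and the Erbb2 lines below. The median differences from NSC over all genes ran the same way, 0.16 for the Hras lines and -0.14 for the Erbb2 lines. The difference between the tumour types was tested with limma over all genes, and none of the 6 passed, with adjusted p-values of 0.39 or above. Kcnn4, the calcium-activated potassium channel, was higher in the Hras lines than in the Erbb2 lines by 2.26, with means of 8.33, 6.07 and 6.41 in Hras lines, Erbb2 lines and NSC. Hells, a chromatin remodeller, was higher by 1.95, with means of 8.59, 6.64 and 7.05 in Hras lines, Erbb2 lines and NSC. The Erbb2 lines overlapped NSC in both genes. Kcnn4 had levels of 6.33, 6.07 and 5.81 in the Erbb2 lines, against 6.90, 6.10 and 6.22 in NSC. Hells had 6.51, 6.54 and 6.87 in the Erbb2 lines, against 7.55, 5.51 and 8.09 in NSC. Rras2, the Ras relative, was higher by 1.20, and Inhba, the activin A subunit, by 1.14, and in these genes too the Erbb2 lines overlapped NSC. Sox2, the stem cell factor, was higher by 0.56 and Hras1 by 0.45, both differences that sit beside a shift of 0.29 over all genes.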

How the results depend on the processing

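The number of genes with an adjusted p under 0.05 in limma, 0 for Hras lines against NSC, was 2 after quantile normalization, 1 after centring, 20 with the 6 arrays alone and 70 with array weights, and it stayed 0 with the dim filter, with trend and robust eBayes and over probe sets. Leaving out 1 array gave 0 to 76. With the replicate block it was 9. Deviations of same-numbered Hras and NSC cultures correlated at 0.117, 0.251 and -0.095, and those of differently numbered ones between -0.51 and 0.41. The main fit therefore did not pair them. Whether same-numbered Hras and Erbb2 lines belong together was not tested, and the main fit did not pair these either. Their descriptions open with the same number, and some list means relative to NSC ran in parallel. Oligodendrocyte precursor genes had 1.62, 0.81 and -0.67 in the Hras lines, and 1.64, 0.99 and -0.19 in the Erbb2 lines. MHC class I genes had 0.24, 0.58 and 2.34, and -0.55, -0.22 and 2.09. Actin cytoskeleton genes did not run in parallel, with 0.24, 0.82 and 1.19, and 0.41, -0.14 and 0.12. Against the Erbb2 lines the number of genes with an adjusted p under 0.05 in limma was 0 in every fit run, the replicate block included. Genes apart and at least 2-fold higher numbered 459 after quantile normalization and 335 after centring, against 879, and 906 to 1642 without 1 array. Those lower numbered 315 after quantile normalization, 390 after centring and 327 over probe sets, against 144, and 156 to 302 without 1 array. Some differences turned sign. Hras1 was -0.067 after quantile normalization and -0.22 after centring, and Vim -0.16 after centring. Etv5 was -0.11 after quantile normalization, -0.28 after centring and -0.40 with array weights. Without 1 array, Etv5 ran between -0.48 and 0.44, Nes between -0.79 and 0.49, Cntn1 between -0.22 and 3.58, Gja1 between -2.56 and 0.48, and Neto1 between -1.97 and 1.32. List medians relative to all genes were -0.025 for basement membrane and -0.018 for Hox genes with the dim filter. Without 1 array they ran between -0.051 and 0.37 for PI3K and Ral genes, -0.0094 and 0.19 for receptor tyrosine kinases, -0.040 and 0.32 for basement membrane, -0.0071 and 0.12 for Hox genes, and -0.0047 and 0.42 for Polycomb genes. Causes were not tested.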
